A study of Mus musculus with 40 samples.

Results

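The comparison is between mouse bone marrow-derived macrophages with and without a functional Otulin gene after 3 h of lipopolysaccharide (LPS). It rests on 8 of the 40 libraries of the series, chosen by their labels for genotype and time: 4 libraries of OtulinFL/FL LysMCreTg/WT cells (KO) and 4 of OtulinFL/FL cells (WT). Both groups therefore carry the loxP-flanked Otulin alleles, and KO adds Cre recombinase expressed from the Lyz2 (LysM) locus, which is active in macrophages, monocytes and neutrophils. No group has Cre without the floxed alleles, so loss of Otulin and presence of Cre cannot be told apart in any result. The cells were grown from marrow in medium with 10% serum and 30% L929-conditioned medium, a source of the growth factor M-CSF, and seeded at 700000 per well. LPS was ultrapure, from Salmonella minnesota, at 500 ng/ml. The labels state neither the ages of the mice nor the share of cells in which Cre had cut the gene.

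OTULIN is a deubiquitinase that cleaves linear (Met1-linked) ubiquitin chains. These chains are built by the complex of HOIP, HOIL-1 and SHARPIN (genes Rnf31, Rbck1 and Sharpin) on signalling proteins below TNF receptors and Toll-like receptors, where they recruit kinases that activate NF-κB. LPS is sensed by the receptor TLR4, which signals through MyD88 to NF-κB and through TRIF to the interferon-β gene. Loss of OTULIN in mice and in people is known to cause inflammation.

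Messenger RNA was counted by 3′ tag sequencing, and levels are given as CPM, a gene's counts relative to the library's total, scaled by TMM factors so that libraries can be compared. The 8 libraries held 3742637 to 6829303 counts, so that 5 CPM corresponds to 17.7 counts in the smallest, and 10576 to 11824 genes had at least 10 counts. Mitochondrially encoded genes took 1.11% to 1.53% of the counts in KO and 1.34% to 1.58% in WT. On the first principal component, which held 24.0% of the variance, KO libraries lay between −3.33 and 22.1 and WT libraries between −32.6 and 2.57, so the genotypes overlapped, and WT 4 lay farthest out. KO 3 and WT 4 came from male animals and the other 6 libraries from females by Xist and Y-linked counts. The labels call the libraries replicates without naming animals, so p-values measure the spread between these libraries.

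Otulin itself (ENSMUSG00000046034) lay at 31.4, 33.3, 31.8 and 33.5 CPM in KO 1 to KO 4. In WT 1 to WT 4 it lay at 47.5, 44.8, 43.8 and 36.4 CPM. All KO libraries were below all WT libraries, but the difference of −0.41 ± 0.10 log2 (SE) did not pass the test (edgeR adjusted p = 0.0564). Without WT 4, its lowest WT library, it was −0.48 and passed (adjusted p = 0.0198). The labels do not say which exons Cre removes, and tags are read at the transcript's 3′ end, so a transcript that lacks internal exons can still be counted, and the level is no check of the label. Lyz2, whose locus carries Cre in KO, lay at 2092, 2304, 1937 and 2016 CPM in KO and at 3081, 2387, 2900 and 3180 CPM in WT. It was lower in KO by 0.47 ± 0.09 log2 (adjusted p = 0.0258), a call that each of 5 libraries could undo when left out, KO 3, KO 4, WT 1, WT 3 and WT 4 (adjusted p of at most 0.0972).

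Few genes differed between the genotypes at 3 h, and most of the differences were small. Of 11035 genes tested, 76 (0.689%) passed an adjusted p of 0.05, 40 of them higher in KO (0.362%) and 36 lower (0.326%). In each of the 76 the 4 KO values lay wholly above or wholly below the 4 WT values, as they did in 3.26% (above) and 2.96% (below) of all genes tested. Only 6 differed by more than 2-fold, and the median log2 fold change was 0.51 among the higher and −0.55 among the lower genes, beside 0.01 over all genes tested. At an unadjusted p under 0.05 there were 1292 genes. Of all genes tested 51.7% lay above 0, and the counts above 0 in the gene lists below stand beside that share. Among called genes with the symbol of a known gene and a mean of 5 CPM or more, the largest rises were those of Itgax, H2-M2 and Serpinb9b, and the largest falls those of S100a9, Ly6c2 and Id3.

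**Figure D1:**
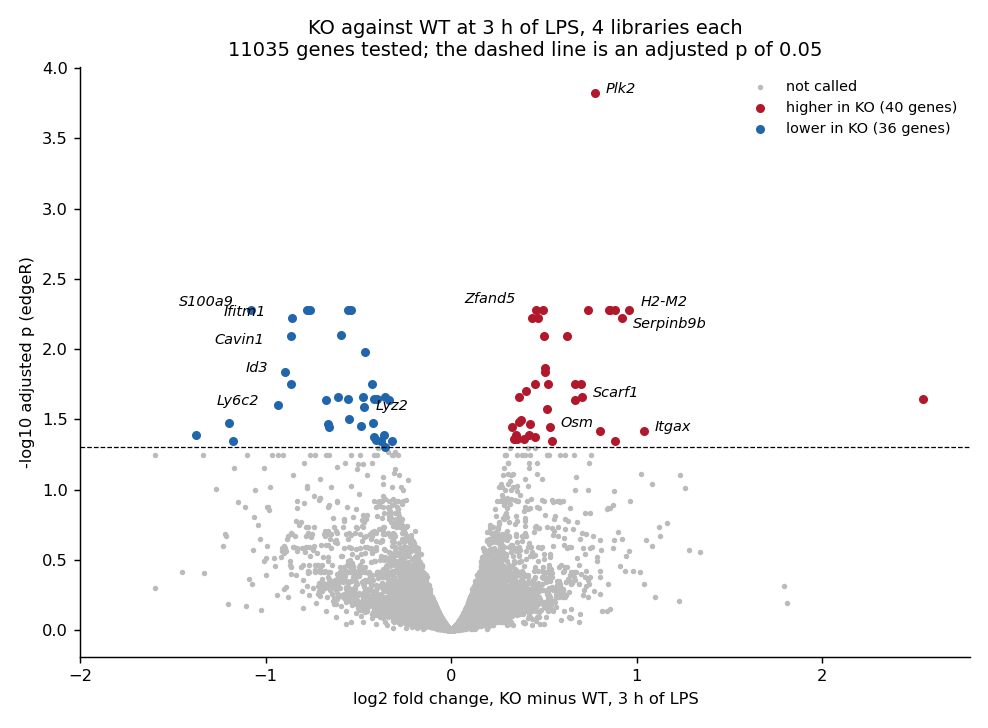
Log2 fold change (KO minus WT, x axis) against −log10 of the edgeR adjusted p (y axis) for each of the 11035 genes tested at 3 h of LPS; red points are the 40 genes called higher, blue points the 36 called lower, and the dashed line marks an adjusted p of 0.05. Plk2 stands apart at the top, with a log2 fold change of 0.77, the other called genes lie nearer the line, and the red point farthest to the right is a predicted gene.

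Plk2, which encodes a polo-like kinase induced by serum and stress, had the smallest p-value. It lay at 101, 85.3, 93.5 and 89.6 CPM in KO and at 54.8, 54.7, 53.2 and 53.5 CPM in WT. The WT libraries were almost level, and the lowest KO library was more than 1.5 times the highest WT library. The rise was 0.77 ± 0.08 log2 (SE; edgeR adjusted p = 0.000151), or 1.71-fold. A pair of genes for ubiquitin handling rose with similar tightness. Zfand5, whose zinc-finger protein binds ubiquitin and the proteasome, lay at 311, 312, 282 and 292 CPM in KO and at 222, 212, 217 and 220 CPM in WT, a rise of 0.46 ± 0.06 log2 (adjusted p = 0.00526). Ubb, which encodes a chain of ubiquitin units, lay at 307, 370, 317 and 338 CPM in KO and at 237, 225, 228 and 253 CPM in WT, a rise of 0.50 ± 0.07 log2 (adjusted p = 0.00526). Near-identical copies of ubiquitin genes can share tags with Ubb, so its value is less certain. Atf3, an ATF/CREB-family transcription factor that restrains Toll-like receptor responses, lay at 346, 325, 346 and 370 CPM in KO and at 251, 240, 266 and 272 CPM in WT. It rose by 0.43 ± 0.07 log2 (adjusted p = 0.00597), a call lost without WT 2 (adjusted p = 0.0532). Plk2, Zfand5 and Ubb were called in each of the 8 fits that left out 1 library.

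The promoters of Plk2, Zfand5 and Atf3 are shown because these genes rose together and each window holds the letters ACGTCA, part of the cyclic AMP response element that ATF/CREB factors bind. The windows run from 250 bases before to 50 bases after the RefSeq start on GRCm38.p6, and capitals mark ACGTCA on either strand (TGACGT on the other), with overlapping matches joined. In the order printed they are chr13:110394794-110395093 (plus strand), chr19:21272028-21272327 (plus strand) and chr1:191183284-191183583 (minus strand).
Plk2: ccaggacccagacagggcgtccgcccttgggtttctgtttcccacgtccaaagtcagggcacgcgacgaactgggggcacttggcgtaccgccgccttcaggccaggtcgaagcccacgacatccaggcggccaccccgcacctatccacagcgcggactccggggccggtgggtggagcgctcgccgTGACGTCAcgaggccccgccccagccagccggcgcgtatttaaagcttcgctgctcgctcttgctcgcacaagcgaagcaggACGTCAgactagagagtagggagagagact
Zfand5: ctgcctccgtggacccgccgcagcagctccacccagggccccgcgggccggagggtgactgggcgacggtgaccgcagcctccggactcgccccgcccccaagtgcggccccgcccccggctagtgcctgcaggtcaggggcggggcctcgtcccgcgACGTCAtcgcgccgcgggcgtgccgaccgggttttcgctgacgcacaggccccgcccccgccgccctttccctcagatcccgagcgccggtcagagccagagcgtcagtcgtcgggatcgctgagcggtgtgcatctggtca
Atf3: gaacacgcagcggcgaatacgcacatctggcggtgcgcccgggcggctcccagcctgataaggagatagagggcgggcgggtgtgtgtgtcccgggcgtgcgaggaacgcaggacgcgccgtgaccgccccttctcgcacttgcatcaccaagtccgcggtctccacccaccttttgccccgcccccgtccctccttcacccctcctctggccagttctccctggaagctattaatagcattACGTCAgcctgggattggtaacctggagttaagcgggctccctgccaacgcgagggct
The motif and these genes were chosen after the values and the sequences were seen. The same letters occur in 12.0% of the 10477 windows of genes tested at 3 h, with windows found for 54 of the 76 called genes and 8221 of 11029 symbols tested, and no share over the called genes was computed. A match is a description of the letters and says nothing on whether a factor was bound.

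**Figure D2:**
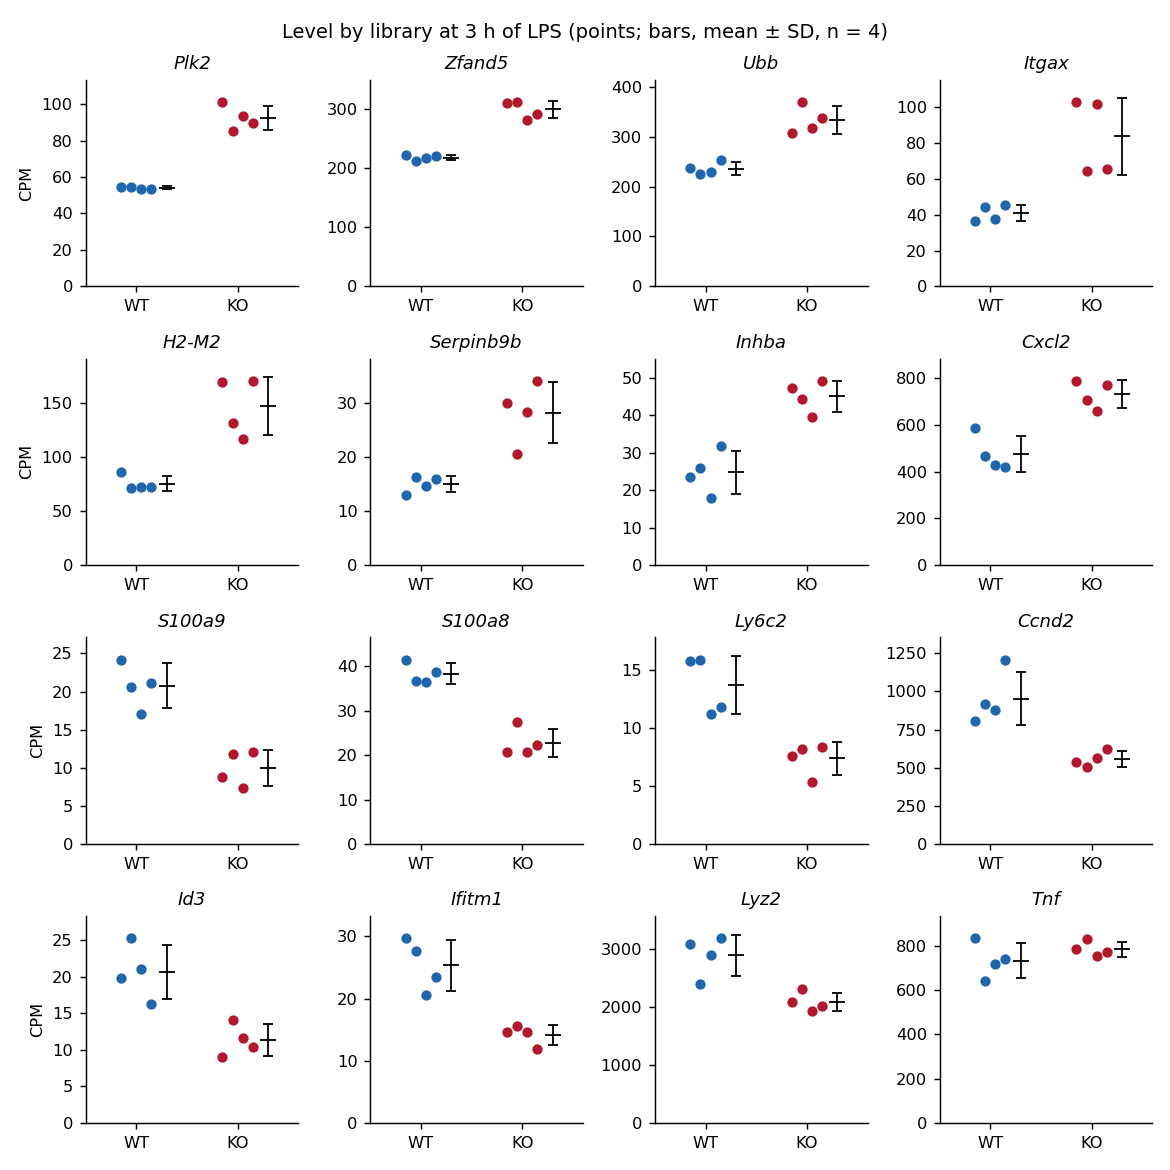
Level in CPM (y axis, from 0) of 16 genes in each WT (blue) and KO (red) library at 3 h of LPS, with black marks for the mean and SD of the 4 libraries of a group. In 15 panels the points of the genotypes do not overlap, and in Tnf, shown for contrast, they do.

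Genes for surface molecules were among those with the largest rises. Itgax (ENSMUSG00000030789), the integrin subunit CD11c of dendritic cells and some macrophages, lay at 103, 64.1, 102 and 65.6 CPM in KO and at 36.3, 44.1, 37.7 and 45.5 CPM in WT. The KO libraries fell into a higher pair, KO 1 and KO 3, and a lower pair, both above WT. The rise of 1.04 ± 0.18 log2 (SE; edgeR adjusted p = 0.0384) was lost without any 1 of KO 3 or the 4 WT libraries (highest adjusted p = 0.136). H2-M2, a nonclassical MHC class I gene, lay at 169, 132, 117 and 171 CPM in KO and at 85.8, 71.8, 72.3 and 71.9 CPM in WT. It rose by 0.96 ± 0.12 log2 (adjusted p = 0.00526) and was called in all 8 fits without 1 library, while 0 of the other 20 MHC class I presentation genes tested were called and the median of that list was −0.03. H2-M2 has close relatives among MHC class I genes, and tags shared between copies cannot be told apart here.

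The scavenger receptor genes Scarf1 and Cd36 and some lipid-handling genes were among the higher genes as well. The scavenger receptor genes Msr1 and Marco lay below 0 and were not called (−0.12 and −0.54 log2, edgeR adjusted p = 0.687 and 0.883). Scarf1, a scavenger receptor that takes up modified lipoproteins, was between 18.5 and 19.8 CPM in the KO libraries and between 10.0 and 13.7 CPM in the WT libraries and rose by 0.71 ± 0.14 log2 (SE; edgeR adjusted p = 0.0219). Cd36, a scavenger receptor and fatty acid transporter, lay at 1427, 1113, 1257 and 1199 CPM in KO and at 958, 836, 889 and 1055 CPM in WT, a rise of 0.42 ± 0.09 log2 (adjusted p = 0.0410). The gap between KO 2, the lowest KO library, and WT 4, the highest WT library, was narrow. Fabp4, the fatty acid-binding protein of fat cells and macrophages, rose by 0.45 ± 0.08 log2 (adjusted p = 0.0178), with WT libraries between 348 and 393 CPM and KO libraries between 439 and 571 CPM. Acsl1, which activates long-chain fatty acids, rose by 0.36 ± 0.08 log2 (adjusted p = 0.0434), and Arl4c, a small GTPase induced by the sterol-sensing receptor LXR, by 0.47 ± 0.08 log2 (adjusted p = 0.00597). Of the 9 cholesterol efflux and LXR target genes tested, 7 lay above 0 with a median of 0.16, and Arl4c alone was called. Within these genes only Arl4c was called in all 8 fits without 1 library: Fabp4 was lost without WT 2, WT 3 or KO 4, Scarf1 without KO 3, KO 4, WT 1 or WT 2, and Cd36 and Acsl1 without any 1 of 6 libraries each (highest adjusted p = 0.163).

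Other higher genes with a known surface or matrix role were Met, Jag1, Cadm1, Ptpre and Mmp12. Met, the receptor for hepatocyte growth factor, rose by 0.43 ± 0.09 log2 (edgeR adjusted p = 0.0340), and Jag1, a ligand of Notch receptors, by 0.40 ± 0.08 log2 (adjusted p = 0.0198). Cadm1, an adhesion molecule, lay at 413, 457, 341 and 324 CPM in KO and at 273, 229, 248 and 302 CPM in WT (0.54 ± 0.11 log2, adjusted p = 0.0451). Ptpre, a protein tyrosine phosphatase, rose by 0.37 ± 0.07 log2 (adjusted p = 0.0219). Mmp12, the macrophage elastase, was the most abundant of the higher genes, at 1737, 1313, 1419 and 1449 CPM in KO and 1149, 995, 1001 and 1022 CPM in WT (0.51 ± 0.09 log2, adjusted p = 0.0137). Of 13 genes of matrix metalloproteases and inhibitors tested, 7 lay above 0 and Mmp12 was the one called higher; Adamts4, an aggrecan-cleaving protease, was lower, at 129, 121, 133 and 97.2 CPM in KO against 157, 163, 162 and 186 CPM in WT (−0.47 ± 0.09 log2, adjusted p = 0.0219). Without WT 2 or WT 3 the calls of Mmp12, Met and Adamts4 were lost, Met also without KO 2, KO 3 or KO 4 and Adamts4 without KO 2 (highest adjusted p = 0.157). Cadm1 was lost without any 1 of 6 libraries (0.163), Ptpre without KO 2, KO 3, WT 2 or WT 3 (0.116) and Jag1 without KO 3, WT 2 or WT 3 (0.0983).

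Among the remaining large rises, several genes encode enzymes, signalling proteins or inhibitors. Serpinb9b, a member of the intracellular serpin family that includes granzyme inhibitors, lay at 30.0, 20.6, 28.4 and 34.2 CPM in KO and at 13.0, 16.3, 14.8 and 16.0 CPM in WT (0.92 ± 0.15 log2, edgeR adjusted p = 0.00597). Its family has close copies that can share tags. Maoa, the monoamine oxidase that breaks down serotonin and noradrenaline, lay at 33.7, 25.1, 27.6 and 31.4 CPM in KO and at 19.6, 14.9, 16.0 and 13.4 CPM in WT (0.88 ± 0.14 log2, adjusted p = 0.00526). Rgcc, a complement-responsive regulator of the cell cycle, lay at 41.1, 30.2, 43.4 and 32.9 CPM in KO and at 18.3, 22.5, 20.4 and 21.1 CPM in WT (0.85 ± 0.13 log2, adjusted p = 0.00526). Gng11, a G protein γ subunit, was between 22.9 and 26.0 CPM in KO and between 13.5 and 15.1 CPM in WT (0.74 ± 0.11 log2, adjusted p = 0.00526). Each of these 4 was called in all 8 fits without 1 library. Ptgfrn was between 8.36 and 12.1 CPM in KO and between 4.55 and 6.62 CPM in WT. Mamdc2 was between 11.0 and 14.3 CPM in KO and between 5.48 and 7.93 CPM in WT. Levels of both genes were low. Their rises of 0.88 ± 0.20 and 0.80 ± 0.17 log2 (adjusted p = 0.0451 and 0.0383) were the least stable of the 15 largest: Ptgfrn was lost without any 1 library (highest adjusted p = 0.145) and Mamdc2 without any 1 except KO 1 or KO 2 (highest adjusted p = 0.131).

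Secreted factors moved in both directions, and the main inflammatory cytokines of the LPS response did not pass the test. Inhba, which encodes the subunit of activin A, lay at 47.2, 44.3, 39.7 and 49.2 CPM in KO and at 23.5, 25.9, 18.1 and 31.8 CPM in WT, a rise of 0.86 ± 0.13 log2 (SE; edgeR adjusted p = 0.00526). Of 22 activin, TGF-β and BMP signalling genes tested, Inhba alone was called. Cxcl2, a chemokine that attracts neutrophils, lay at 789, 707, 657 and 772 CPM in KO and at 587, 466, 427 and 418 CPM in WT (0.62 ± 0.10 log2, adjusted p = 0.00812), a call lost without WT 2 (adjusted p = 0.0571). Cxcl11, an interferon-inducible chemokine for T cells, was lower, at 178, 161, 144 and 159 CPM in KO against 184, 217, 207 and 216 CPM in WT (−0.36 ± 0.08 log2, adjusted p = 0.0410). Those were the 2 called among 19 chemokines, of which 12 lay above 0 with a median of 0.09. Osm, a cytokine of the IL-6 family, was between 31.0 and 40.4 CPM in KO and between 21.9 and 25.3 CPM in WT (0.53 ± 0.11 log2, adjusted p = 0.0362). Tnfsf15, the TNF-family ligand TL1A, was between 400 and 478 CPM in KO and between 314 and 363 CPM in WT (0.35 ± 0.08 log2, adjusted p = 0.0408). Both were called of 19 inflammatory cytokines tested, 8 of which lay above 0. Tnfsf8, the ligand of CD30, was lower, at 54.5, 56.2, 71.0 and 61.0 CPM in KO against 83.5, 101, 82.2 and 102 CPM in WT (−0.59 ± 0.10 log2, adjusted p = 0.00798). Metrnl, a secreted meteorin-like protein, was higher by 0.39 ± 0.09 log2 (adjusted p = 0.0438). Only Inhba of this group was called in all 8 fits without 1 library: Tnfsf8 was lost without WT 2 (0.0532), Osm without any 1 but KO 3, and Tnfsf15, Cxcl11 and Metrnl without any 1 of 6 libraries each (highest adjusted p = 0.168).

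The libraries of the genotypes overlapped for Tnf, Il1b, Il6, Il10 and Nlrp3, and not for Ifnb1. Tnf lay at 784, 832, 753 and 771 CPM in KO and at 834, 642, 718 and 741 CPM in WT, a difference of 0.10 log2 with a 95% interval of −0.10 to 0.29 (edgeR adjusted p = 0.707). Il1b lay at 1266, 1401, 1050 and 1586 CPM in KO and at 1174, 1191, 1387 and 1627 CPM in WT (interval −0.34 to 0.30). For Il6, between 217 and 339 CPM in KO and between 267 and 289 CPM in WT, the interval was −0.32 to 0.22. Il10, which restrains inflammation, was lowest in WT 1 (13.9 CPM) and highest in WT 4, so its interval of −0.61 to 0.80 was wide. Ifnb1, the interferon-β gene, lay at 11.1, 9.03, 8.80 and 9.11 CPM in KO and at 4.56, 7.10, 6.11 and 2.14 CPM in WT. The groups did not overlap, but the difference of 0.87 ± 0.25 log2 did not pass the test (adjusted p = 0.129), and the WT values rest on few counts. Ifnb1 was called higher in KO without a filter on low counts (edgeR adjusted p = 0.00763). Nlrp3, the inflammasome sensor, differed by 0.03 log2 (interval −0.15 to 0.22).

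Both calprotectin genes and 3 of 13 monocyte markers tested were called lower in KO, beside 0.326% of all genes tested. S100a9 (ENSMUSG00000056071) and S100a8 encode the subunits of calprotectin, abundant in neutrophils and monocytes. S100a9 lay at 8.73, 11.9, 7.36 and 12.1 CPM in KO and at 24.2, 20.6, 17.0 and 21.1 CPM in WT, and fell by 1.08 ± 0.17 on the log2 scale (SE; edgeR adjusted p = 0.00526). S100a8 lay at 20.8, 27.4, 20.8 and 22.3 CPM in KO and at 41.5, 36.7, 36.4 and 38.8 CPM in WT, and fell by 0.76 ± 0.11 on the log2 scale (adjusted p = 0.00526). Both were called in all 8 fits without 1 library. Ly6c2, a surface marker of inflammatory monocytes with the close copy Ly6c1, lay at 7.55, 8.19, 5.34 and 8.36 CPM in KO and at 15.7, 15.9, 11.2 and 11.8 CPM in WT (−0.93 ± 0.19 log2, adjusted p = 0.0250), a call that did not pass without KO 3, WT 1 or WT 2 (adjusted p up to 0.138). Vcan, which encodes the matrix proteoglycan versican made by monocytes, lay at 59.7, 53.4, 55.4 and 43.5 CPM in KO and at 65.7, 82.2, 83.2 and 104 CPM in WT (−0.66 ± 0.13 log2, adjusted p = 0.0362). With KO 2, KO 3, KO 4, WT 2 or WT 3 left out it did not pass (adjusted p up to 0.150).

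The promoter windows of the calprotectin genes, from RefSeq on GRCm38.p6, are shown because these neighbours on chromosome 3 moved together. The windows are chr3:90668821-90669120 (plus strand) for S100a8 and chr3:90695672-90695971 (minus strand) for S100a9, and capitals mark the letters TATAAA on either strand (TTTATA on the other). In S100a8 the match lies at −30 to −25 from the annotated start, where a TATA box usually sits, and in S100a9 it begins at the annotated start itself, where one does not.
S100a8: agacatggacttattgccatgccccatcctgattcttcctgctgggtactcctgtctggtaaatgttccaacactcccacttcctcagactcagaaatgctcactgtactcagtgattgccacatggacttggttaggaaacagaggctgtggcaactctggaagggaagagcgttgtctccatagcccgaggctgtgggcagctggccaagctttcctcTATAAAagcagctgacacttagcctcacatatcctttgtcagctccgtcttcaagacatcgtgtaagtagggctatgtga
S100a9: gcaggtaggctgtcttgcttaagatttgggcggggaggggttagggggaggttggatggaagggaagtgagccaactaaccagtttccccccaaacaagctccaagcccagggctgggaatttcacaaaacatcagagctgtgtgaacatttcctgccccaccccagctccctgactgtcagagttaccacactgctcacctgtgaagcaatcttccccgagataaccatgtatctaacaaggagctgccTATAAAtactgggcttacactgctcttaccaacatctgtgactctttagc
These letters occur in 7.18% of the 10477 windows of genes tested, and were chosen after these sequences were seen.

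Marker lists of cell types are described by the levels of their genes. They stand beside 51.7% of all genes tested above 0 and 0.689% called. Of 21 macrophage identity genes, 12 lay above 0 with a median of 0.01, and 2 were called, Cd36 higher and Lyz2 lower. Their summed level over the whole list was between 9541 and 11002 CPM in KO and between 9480 and 11711 CPM in WT. Of 17 neutrophil markers 6 were tested, all lay below 0 with a median of −0.59, and 2 were called, while Retnlg, Ly6g and Cd177 were at 0 counts in all 8 libraries. Their summed level overlapped, between 222 and 295 CPM in KO and between 262 and 299 CPM in WT. Of 13 monocyte markers tested 10 lay below 0, with a median of −0.36, and 3 were called, all lower. Fn1, which encodes fibronectin, Gpx1 and Lst1 lay above 0 (0.58, 0.18 and 0.09 log2, adjusted p = 0.450, 0.289 and 0.905), and the summed level was between 860 and 949 CPM in KO and between 860 and 958 CPM in WT. In bulk RNA, fewer cells of a type and less RNA per cell cannot be told apart, and the part of cell composition in these results was not tested. Dendritic cell markers were mostly too low, with 3 of 11 tested, 1 of them above 0, which was Itgax. Osteoclast markers leaned the other way: 7 of 8 lay above 0 with a median of 0.36, but 0 were called. The proton pump subunit Atp6v0d2 lay at 254, 164, 213 and 212 CPM in KO and 129, 119, 147 and 172 CPM in WT (edgeR adjusted p = 0.120). It was called without KO 2 (0.0154), without WT 4 (0.0455) and by DESeq2 (adjusted p = 0.00272). None of the lymphoid or mast cell markers was high enough to test, with summed levels of at most 5.88 and 2.36 CPM. Of the stromal markers Kdr alone was tested, between 19.8 and 28.8 CPM in KO and between 31.3 and 40.2 CPM in WT (adjusted p = 0.0654), and Col1a1 and Dcn were at 0. Kdr was called lower without a filter on low counts (edgeR adjusted p = 0.00523).

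A cyclin and an inhibitor of transcription factors were among the lower genes. Ccnd2, which encodes the G1 cyclin D2, lay at 538, 502, 563 and 623 CPM in KO and at 809, 917, 878 and 1208 CPM in WT. It fell by 0.77 ± 0.11 on the log2 scale (SE; edgeR adjusted p = 0.00526), a call kept in all 8 fits without 1 library, and was the 1 gene called of 19 G1 cyclins, CDK inhibitors and Myc genes. Of 34 mitosis and replication genes 19 lay above 0 with a median of 0.02 and 0 were called. Mki67, the proliferation marker Ki-67, had the smallest p among them, with 215, 233, 227 and 174 CPM in KO and 295, 252, 253 and 242 CPM in WT (adjusted p = 0.161). Mki67 was called lower without a filter on low counts (edgeR adjusted p = 0.0151). Id3, an inhibitor of basic helix-loop-helix factors, lay at 8.97, 14.1, 11.7 and 10.4 CPM in KO and at 19.9, 25.3, 21.1 and 16.3 CPM in WT (−0.89 ± 0.16 log2, adjusted p = 0.0146). It did not pass with KO 4, WT 2 or WT 3 left out (adjusted p up to 0.0931). Among Krüppel-like factors, Klf7 was lower (−0.43 ± 0.08 log2, adjusted p = 0.0178) and Klf9, a glucocorticoid-induced factor, higher. Klf9 lay at 53.8, 42.9, 44.3 and 44.4 CPM in KO and at 36.1, 29.9, 24.7 and 22.5 CPM in WT (0.70 ± 0.13 log2, adjusted p = 0.0178). Of the 12 ID and KLF genes tested those 3 were called, beside 0.689% of all genes tested, and the median was −0.07. Klf9 was lost without WT 2 or WT 3 and Klf7 without those libraries, KO 3 or KO 4 (adjusted p up to 0.0757).

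Further transcription and chromatin genes followed. Pou2f2, the octamer factor Oct-2, lay at 70.6, 85.3, 62.2 and 65.2 CPM in KO and at 95.8, 107, 95.7 and 131 CPM in WT (−0.61 ± 0.11 log2, edgeR adjusted p = 0.0219). Nfil3, a basic leucine zipper repressor, was higher, between 26.5 and 33.1 CPM in KO and between 16.2 and 24.9 CPM in WT (0.67 ± 0.13 log2, adjusted p = 0.0231). Lower in KO were Tet2, which oxidises methylated cytosine (−0.40 ± 0.08 log2, adjusted p = 0.0227), the chromatin remodeller Chd9 (−0.49 ± 0.10 log2, adjusted p = 0.0356), the bromodomain gene Phip (−0.55 ± 0.11 log2, adjusted p = 0.0313) and Jmjd1c, of the Jumonji demethylase family (−0.36 ± 0.08 log2, adjusted p = 0.0497). Zfp36l2, which promotes decay of AU-rich messenger RNA, was higher by 0.38 ± 0.08 log2 (adjusted p = 0.0318) and was the 1 gene called of 15 dual-specificity phosphatases and mRNA decay regulators. Every one of these 7 calls depended on single libraries. Pou2f2 was lost without KO 3, KO 4 or WT 2, Zfp36l2 without KO 2, KO 3, WT 1 or WT 2, and Nfil3, Tet2, Chd9 and Phip without any 1 of 5 libraries each. Jmjd1c was kept only without KO 1, and the highest adjusted p of the group was 0.152.

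The host gene of miR-155, a microRNA that is induced by LPS in macrophages and represses inhibitors of inflammation, was lower in KO. Mir155hg lay at 118, 84.4, 94.5 and 98.7 CPM in KO and at 136, 122, 132 and 136 CPM in WT (−0.41 ± 0.09 log2, edgeR adjusted p = 0.0445), a call kept only without KO 1 among the 8 fits without 1 library (highest adjusted p = 0.149). The mature microRNA is not polyadenylated and was not measured. Its sequence is shown, from RefSeq on GRCm38.p6 (chr16:84714143-84714165, plus strand), with the seed, bases 2 to 8 from the 5′ end, in capitals.
mmu-miR-155-5p: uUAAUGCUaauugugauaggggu

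Of the other lower genes, several have enzymatic or membrane roles. Ifitm1, a membrane protein of the interferon-induced IFITM family, lay at 14.6, 15.5, 14.6 and 11.9 CPM in KO and at 29.7, 27.6, 20.6 and 23.5 CPM in WT (−0.86 ± 0.14 log2, edgeR adjusted p = 0.00597). The 4 IFITM genes tested all lay below 0, with a median of −0.12, and Ifitm1 alone was called. Hdc, which makes histamine, lay at 51.9, 60.4, 58.5 and 52.2 CPM in KO and at 75.5, 86.0, 76.6 and 85.3 CPM in WT (−0.54 ± 0.08 log2, adjusted p = 0.00526). Stard7, a phosphatidylcholine carrier of mitochondria, lay at 58.8, 70.0, 68.4 and 74.9 CPM in KO and at 97.2, 90.8, 103 and 111 CPM in WT (−0.55 ± 0.09 log2, adjusted p = 0.00526). These 3 were called in all 8 fits without 1 library. Cavin1, a coat protein of caveolae, lay at 14.6, 12.7, 14.0 and 9.48 CPM in KO and at 20.1, 25.4, 22.1 and 24.6 CPM in WT (−0.87 ± 0.15 log2, adjusted p = 0.00812) and was lost without WT 2 (adjusted p = 0.0593). Il4i1, an amino acid oxidase, lay at 21.9, 29.9, 35.8 and 36.1 CPM in KO and at 52.3, 48.9, 43.8 and 55.4 CPM in WT (−0.67 ± 0.13 log2, adjusted p = 0.0231). It overlaps Nup62 on its own strand, so tags may be shared, and it was lost without KO 2, WT 1 or WT 2 (0.0983).

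Signalling and cell death genes among the lower ones had smaller differences. Bcl2l11, which encodes the pro-apoptotic protein BIM, lay at 298, 298, 293 and 318 CPM in KO and at 392, 391, 379 and 358 CPM in WT (−0.33 ± 0.07 log2, edgeR adjusted p = 0.0231). It was the 1 called of 13 BCL2 family genes, 10 of which lay above 0. Map3k5, the stress kinase ASK1, was between 54.1 and 57.6 CPM in KO and between 71.0 and 85.1 CPM in WT (−0.46 ± 0.08 log2, adjusted p = 0.0105). Tiam1, an activator of the GTPase Rac, was between 43.7 and 58.7 CPM in KO and between 68.9 and 92.0 CPM in WT (−0.56 ± 0.11 log2, adjusted p = 0.0227). Itga4, an integrin subunit for leukocyte adhesion, was between 220 and 246 CPM in KO and between 282 and 318 CPM in WT (−0.36 ± 0.07 log2, adjusted p = 0.0219), and Itgax and Itga4 were the 2 called of 15 integrins. Map3k5 was lost without WT 2 (0.0668), Tiam1 without KO 3, KO 4 or WT 2 (0.108), Bcl2l11 without any 1 of 5 libraries (0.0983) and Itga4 without any 1 of 6 (0.0787). The lower genes Nck1, Ankrd44, Fam208b, Marf1 and Fchsd2 and the higher genes Taf11, Aig1, Mtus1, Gpr137b, Tmem65, Ifi27 and Rhoc all differed by 0.52 log2 or less. Of the 76 called genes, 13 overlap another tested gene, among them Adamts4, Taf11, Jmjd1c, Fam208b, Marf1, Fchsd2, Vcan and Chd9, and whether the counting used strand is not stated.

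Genes of the pathway that OTULIN acts in did not pass the test. Of 17 genes of the linear ubiquitin machinery 6 lay above 0 with a median of −0.04, and 0 were called. Of 18 NF-κB subunits, kinases and inhibitors 5 lay above 0 with a median of −0.04, and 0 were called. The ligase subunit gene Rnf31 lay at 75.3, 69.5, 60.8 and 57.1 CPM in KO and at 57.7, 69.2, 69.2 and 73.3 CPM in WT (interval −0.29 to 0.20 log2). Rbck1, Sharpin and the deubiquitinase gene Cyld had intervals of −0.24 to 0.25, −0.30 to 0.32 and −0.27 to 0.09 log2. Tnfaip3, which encodes the inhibitor A20, lay at 410, 362, 291 and 388 CPM in KO and at 392, 342, 339 and 301 CPM in WT (interval −0.18 to 0.33), and Nfkbia, the inhibitor IκBα, had an interval of −0.34 to 0.13. Nfkbid, a nuclear inhibitor of NF-κB, lay at 8.73, 10.4, 9.67 and 9.48 CPM in KO and at 18.7, 11.9, 15.8 and 15.2 CPM in WT. Its groups did not overlap, and the difference of −0.67 ± 0.16 log2 missed the threshold (edgeR adjusted p = 0.0564). Nfkbid was called at a minimum count of 30 (edgeR adjusted p = 0.0497) and without a filter on low counts (0.00998). Without that filter edgeR also called Tnip3 of the linear ubiquitin machinery (0.00461), which had an adjusted p of 0.403 in the main fit. Toll-like receptor signalling (21 genes, median −0.02), death receptor and necroptosis genes (19, median −0.05) and inflammasome and pyroptosis genes (15, median −0.02) had 0 called. The necroptosis genes Ripk1, Ripk3 and Mlkl and the caspase gene Casp8 had intervals of −0.19 to 0.22, −0.23 to 0.84, −0.24 to 0.26 and −0.33 to 0.15 log2. Il1a had the smallest p of the inflammasome list, at 232, 241, 215 and 290 CPM in KO and 194, 186, 190 and 213 CPM in WT (0.32 ± 0.09 log2, adjusted p = 0.101). It was called without a filter on low counts (edgeR adjusted p = 0.00465) and without both male animals (0.0431).

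Interferon, antigen presentation and metabolic lists likewise had no or single called members. Over all genes tested, 51.7% lay above 0 and 0.689% were called. Of 43 type 1 interferon response genes 13 lay above 0, with a median of −0.07, and 0 were called. Oasl1, which limits interferon production in mice, was between 137 and 163 CPM in KO and between 122 and 129 CPM in WT (0.28 ± 0.07 log2, edgeR adjusted p = 0.0784). DESeq2 called Oasl1 (adjusted p = 0.0457), and so did edgeR without a filter on low counts (adjusted p = 0.0300). Of 18 interferon γ-inducible genes 4 lay above 0 (median −0.02) and of 13 MHC class II and costimulatory genes 2 (median −0.21), with 0 called in each. In the opposite direction lay the targets of NRF2, the factor of the oxidative stress response, with 19 of 25 above 0 and a median of 0.12. Gclm, a subunit of the enzyme that starts glutathione synthesis, lay at 157, 163, 162 and 148 CPM in KO and at 136, 131, 118 and 97.1 CPM in WT (0.38 ± 0.09 log2, adjusted p = 0.0564). Nuclear respiratory chain genes had 40 of 50 above 0 (median 0.10), lysosome and cathepsin genes 26 of 30 (median 0.08), and growth factor and colony-stimulating factor genes 14 of 15 (median 0.15). Sterol and fatty acid synthesis genes had 7 of 27 above 0 (median −0.07). In these 5 lists edgeR called 0 genes, while DESeq2 called the NRF2 list members Gclm (adjusted p = 0.0171), Prdx1 (0.0254) and Nfe2l2 (0.0453), the gene of NRF2 itself. Without WT 1, edgeR also called Gclm (0.0461) and Nfe2l2 (0.0421).

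**Figure D3:**
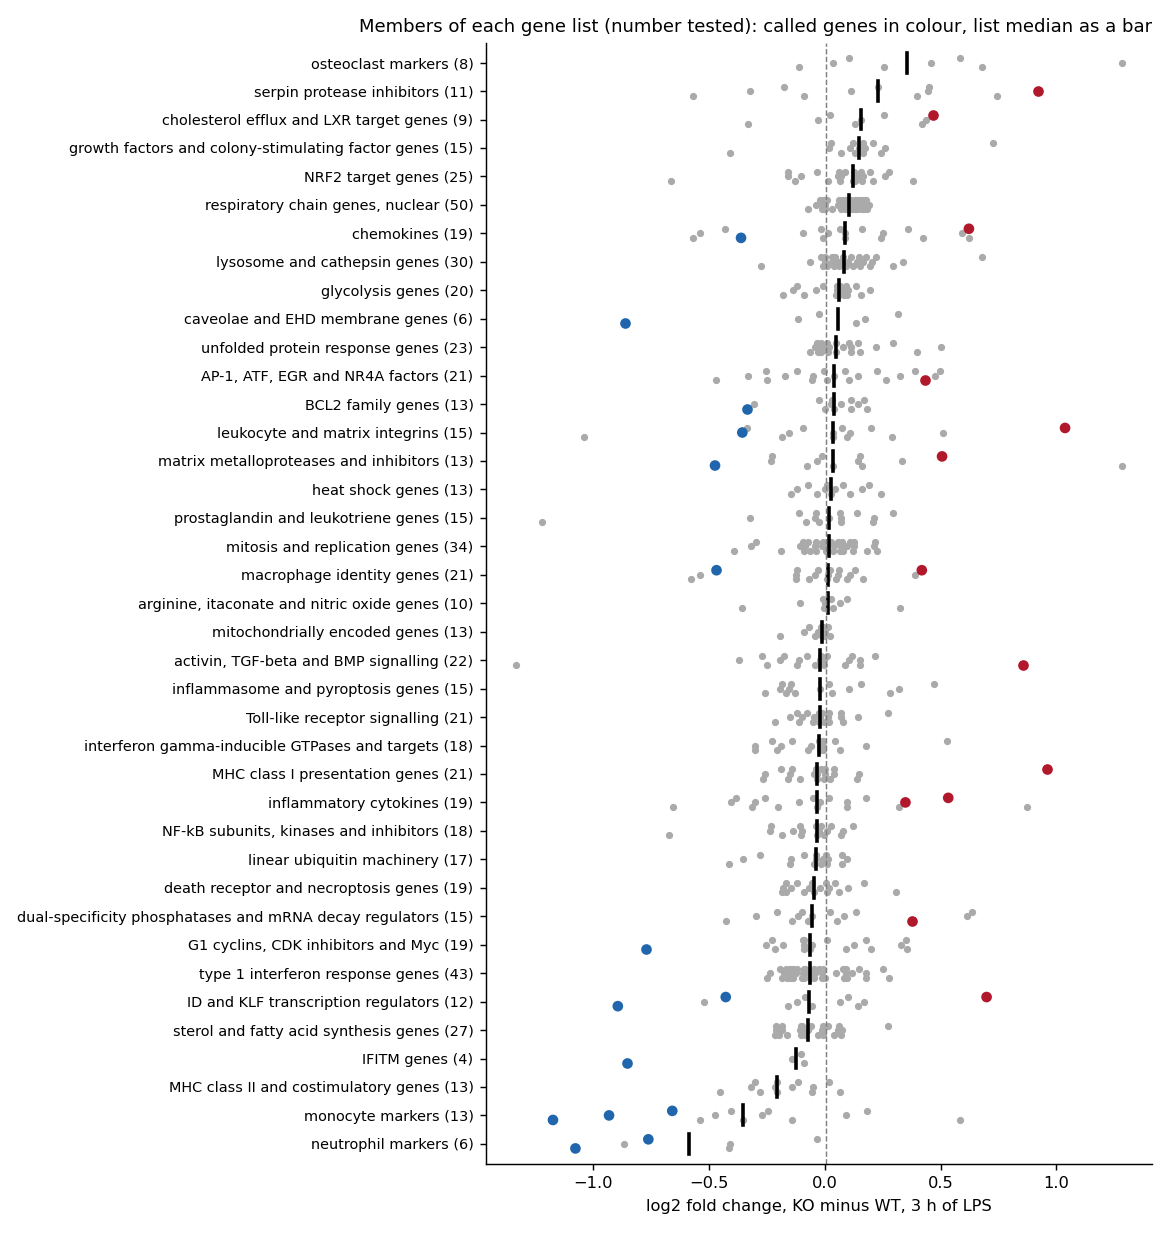
Log2 fold change (KO minus WT, x axis) of each tested member of the gene lists with at least 4 members tested (y axis, number tested in brackets); called genes are red (higher) or blue (lower), other genes grey, black bars are list medians and the dashed line is the median of all genes. Neutrophil and monocyte markers have the lowest medians (−0.59 and −0.36) and osteoclast markers the highest (0.36), and no list holds more than 3 called genes.

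The highest and lowest library of each genotype was counted for the called genes, and the matching shares over all genes tested were not computed. Among the 40 higher genes KO 1 was the highest KO library for 15 and KO 4 for 14, and WT 2 was the lowest WT library for 15. On the side that narrows the difference, WT 1 was the highest WT library for 15 and WT 4 for 14. Among the 36 lower genes WT 4 was the highest WT library for 17, including Ccnd2, Vcan, Phip and Tiam1, and KO 4 the lowest KO library for 15. On the narrowing side, KO 1 was the highest KO library for 15 and WT 1 the lowest WT library for 16. WT 4 is the male WT library and the farthest out on the first principal component. Without WT 2, 18 genes were called, and without KO 1, 160. The part of each library in a gene's difference is seen in the plot of values by library.

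**Figure D4:**
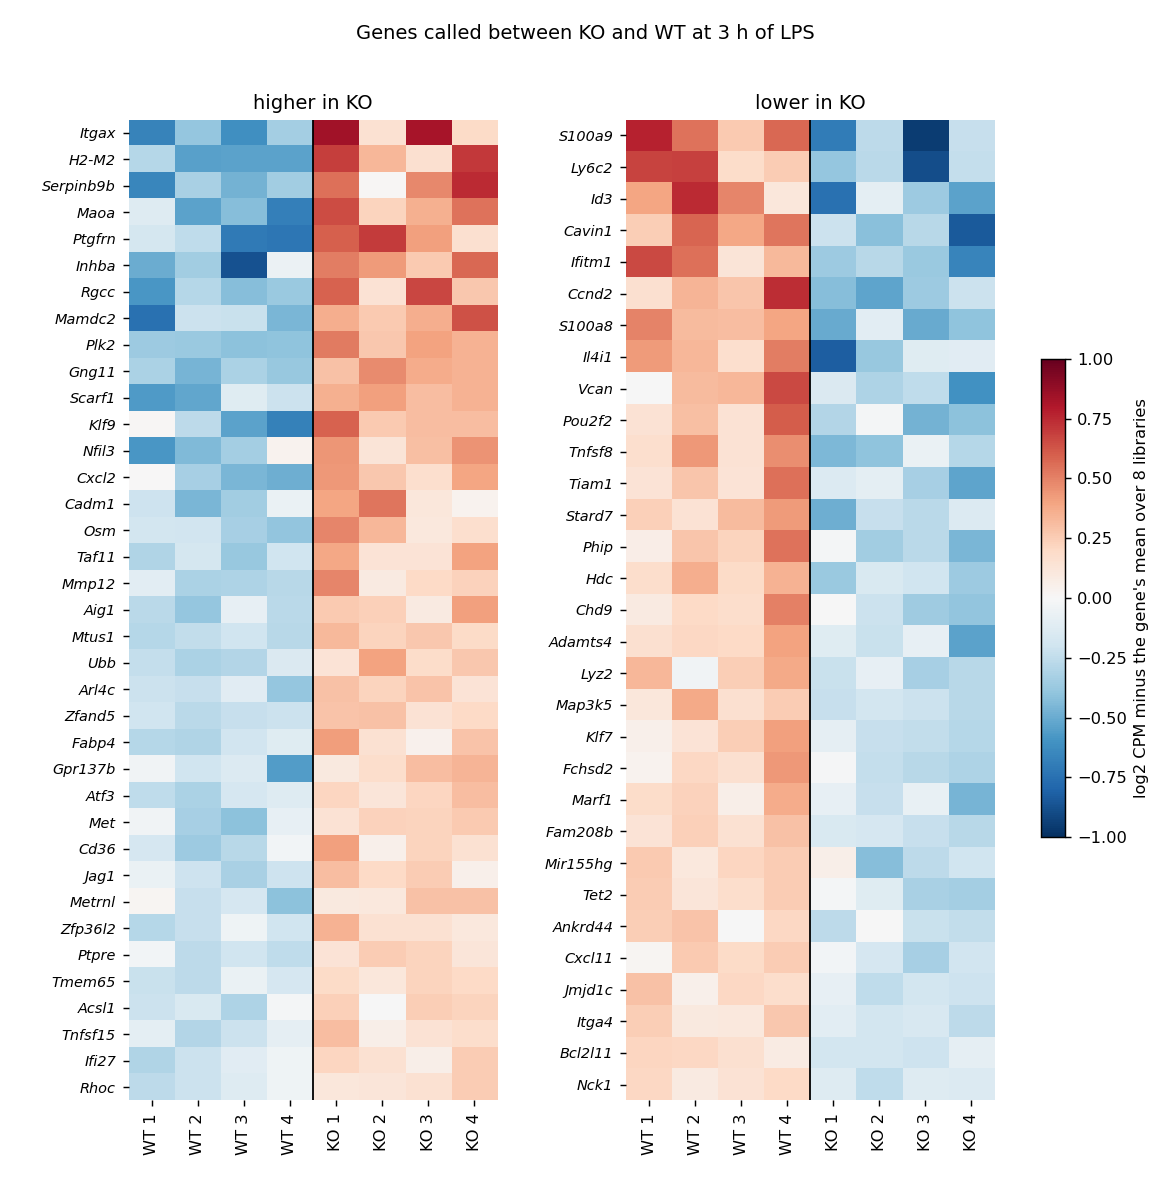
Log2 CPM minus the gene's mean over the 8 libraries (colour, from −1 in blue to 1 in red) for the genes shown of those called that average 5 CPM or more (rows, ordered by fold change) in each library at 3 h of LPS (columns, WT then KO); the left panel holds genes higher in KO and the right panel genes lower in KO. No KO value crosses into the WT range for any gene shown, and among the lower genes WT 4 is often the reddest column.

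The WT level of the called genes at 3 h was set beside that of unstimulated WT cells. Of the 36 lower genes, 24 (66.7%) had a WT mean at 3 h at least 2-fold above that at 0 h, beside 11.3% of the 10194 genes with at least 5 CPM at either time. They include Vcan (2.59 CPM in WT at 0 h and 83.8 CPM at 3 h), Hdc (0.432 and 80.9 CPM), Adamts4 (0.155 and 167 CPM) and Ccnd2 (146 and 953 CPM). Of the 40 higher genes 10 (25.0%) did so, among them Cxcl2 (8.21 and 475 CPM), Tnfsf15 (1.75 and 342 CPM) and Inhba (0.562 and 24.8 CPM). The WT mean fell at least 2-fold from 0 to 3 h for 2 lower genes (5.56%) and 4 higher genes (10.0%). Over the same 10194 genes that share was 7.79%. The WT values at 3 h also entered the choice of these genes. That choice favours high WT values among the lower genes and low ones among the higher genes. The shares are therefore a description and no test of a difference between the groups.

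The differences were compared with those in other libraries of the same genotypes before LPS and at 6, 12 and 24 h, which the calls at 3 h did not use, and the labels do not say whether they came from the same animals. KO 3 and WT 4 were male at each time, and a library's deviations at 3 h correlated best with those of its own number in 7 of 8 libraries at 0 h (r from −0.0216 to 0.265) and in 7 of 8 at 6 h (r from 0.0286 to 0.268). Where the animals are the same, differences between animals carry over from time to time, so these times are no independent repeat. Before LPS, 35 of the 38 higher genes that could be tested lay above 0 in KO, with a median of 0.32, and in 16 (42.1%) the KO libraries lay wholly above WT, beside 2.74% of all genes. At 6 h that held for 29 of 39 (74.4%, beside 5.12% of all genes, median 0.50), at 12 h for 15 of 40 (37.5%, beside 3.29%, median 0.43) and at 24 h for 15 of 39 (38.5%, beside 2.44%, median 0.35). Of the lower genes, 30 of 30 lay below 0 before LPS, with a median of −0.22, and 6 (20.0%, beside 2.09%) had KO wholly below WT. The matching counts were 13 of 36 at 6 h (36.1%, beside 2.77%, median −0.32), 4 of 36 at 12 h (11.1%, beside 1.71%, median −0.26) and 6 of 34 at 24 h (17.6%, beside 2.06%, median −0.17). Called in their own fits were 19 of the higher and 6 of the lower genes at 6 h, where 1.01% of all genes were called, 3 and 2 at 24 h, where 0.0809% were, and 0 at 12 h, where 0.0464% were, and before LPS, where 0 genes were called.

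**Figure D5:**
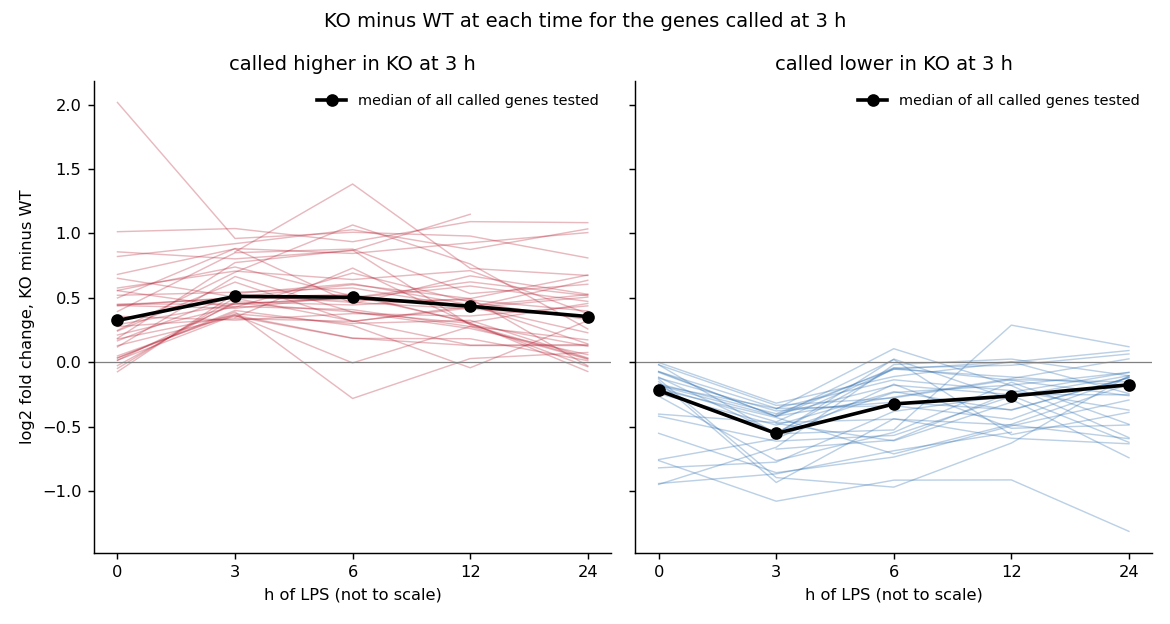
KO minus WT log2 fold change (y axis) at 0, 3, 6, 12 and 24 h of LPS (x axis, evenly spaced) for genes called higher (left, red) or lower (right, blue) at 3 h that average 5 CPM or more; each thin line is a gene and the black line is the median of all called genes tested at that time. The median of the higher genes is 0.32 before LPS and 0.51 at 3 h, and that of the lower genes −0.22 and −0.55, where the values at 3 h are those that chose the genes.

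Single genes showed several courses. Itgax was above WT in KO at each time, with log2 fold changes of 1.01, 1.04, 0.94, 1.09 and 1.08 at 0, 3, 6, 12 and 24 h, and the libraries did not overlap at any of them. Maoa (0.50, 0.88, 0.84, 0.93 and 1.01) and Gng11 (0.56, 0.74, 0.51, 0.43 and 0.53) were also without overlap at each time. S100a9 was below WT at each time (−0.76, −1.08, −0.91, −0.91 and −1.31), although its libraries overlapped at 6 and 12 h. Plk2 behaved otherwise: before LPS it was between 55.1 and 62.0 CPM in KO and between 48.0 and 55.5 CPM in WT, and it differed by 0.19, 0.77, 0.87, 0.29 and 0.03 log2. Zfand5 (0.02, 0.46, 0.39, 0.26 and 0.06) and Atf3 (0.21, 0.43, 0.41, 0.28 and 0.02) also overlapped before LPS and at 12 and 24 h, and not at 3 and 6 h. Arl4c, with WT means of 245 CPM before LPS and 85.1 CPM at 3 h, differed by −0.03 log2 before LPS and by 0.47 at 3 h. Inhba was too low to test before LPS, and its difference was 0.86 log2 at 3 h, 1.38 at 6 h, 0.73 at 12 h and 0.67 at 24 h. Metrnl was called higher at 3 h and lay wholly below WT at 6 h, between 42.8 and 48.6 CPM in KO and between 53.3 and 58.9 CPM in WT, a difference that was not called (−0.28 log2, edgeR adjusted p = 0.213).

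Whether the genotype difference changed with time was tested across all genes. Between before LPS and 3 h, edgeR called 0 of 12165 genes (lowest adjusted p = 0.200, 342 genes at an unadjusted p under 0.05), and DESeq2 called 2, Plk2 and Zfand5. Without a filter on low counts edgeR called 4 genes, Ets2 and Gdf15 among them and neither Plk2 nor Zfand5, so the settings named different genes. For Plk2 the difference at 3 h was larger by 0.59 ± 0.11 log2 (SE; edgeR adjusted p = 0.200, DESeq2 adjusted p = 0.0226) and for Zfand5 by 0.44 ± 0.09 log2 (edgeR adjusted p = 0.557, DESeq2 adjusted p = 0.0226). Between 3 and 6 h, edgeR called 0 of 11358 genes (lowest adjusted p = 0.262, 542 at an unadjusted p under 0.05), and DESeq2 called 1, a gene model with no known role. Metrnl had the smallest p by edgeR, with a change of −0.65 ± 0.12 log2 (adjusted p = 0.262). It passed when the WT 1 libraries of both times were left out (−0.76, adjusted p = 0.0369). With libraries of the same number treated as a replicate block of animals, edgeR called 0 genes between before LPS and 3 h and 4 between 3 and 6 h. Among these 4, the difference of Vcan at 6 h minus that at 3 h was 0.66 log2 (edgeR adjusted p = 0.0140), that of Mxd1, a MAX-binding repressor of transcription, 0.56 (adjusted p = 0.0140) and that of Tiam1 0.59 (adjusted p = 0.0362).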

How the data were processed

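Messenger RNA of 40 libraries was read with QuantSeq 3′ tags, and 8 of them, KO and WT at 3 h of LPS, are compared here. The authors deposited expected counts per gene from RSEM 1.3.3, all whole numbers, so rounding changed nothing. The submitters' processing notes also name STAR 2.7.10a, UMI-tools 1.1.2, cutadapt 3.7, FastQC 0.11.9 and GRCm39, without order or settings, and whether counting used strand is not given in the sources used here.

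Symbols were given to 52029 of 57010 gene rows (98.9% of those tested) from a GENCODE table. Genes passed edgeR's filterByExpr at a minimum count of 10. The edgeR 4.0.16 quasi-likelihood test (R 4.3.3, TMM factors, robust, prior count 0.125) was fitted to the 8 libraries, with Benjamini-Hochberg adjustment over all 11035 genes. CPM used TMM factors over all 40 libraries, and SE is the log2 difference divided by √F, with 95% intervals from t on 6 degrees of freedom. Genotype differences were compared between 3 h and 0 or 6 h in fits of 16 libraries.

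Genes named are the 15 highest and 15 lowest called genes that average 5 CPM or more, called members of the gene lists, other called genes by role, a set of pathway genes called or not, and, from lists with 0 called, those of smallest p; predicted genes are counted only. These lists and the comparison were chosen with earlier results of these data known. Some genes the rule names are not reported here. Alternatives were RLE and upper-quartile scaling, DESeq2 1.42.0, limma-voom (limma 3.58.1), other count filters, other sets of libraries, sex as a term, the replicate number as a block, and each library left out in turn. In the fits of 16 libraries, both libraries of a number within a genotype were left out together.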

Additional observations from a re-analysis of the deposited data

Results flagged for a closer look

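In 13 of 302 groups of 4 libraries, 1 library lay far from the other 3 (by Dixon's criterion on the gap relative to the group's range), and chance alone flags about 1 in 20 groups. KO 1 was the high library for Klf9 (53.8 CPM, the others 42.9 to 44.4), Ifnb1 (11.1 CPM, the others 8.80 to 9.11), and the interferon-inducible GTPases Iigp1 (1024 CPM, the others 682 to 701) and Gbp7 (456 CPM, the others 369 to 371). KO 2 was the low library for the gelatinase Mmp9 (12.4 CPM, the others 27.5 to 30.6), Acsl1 (139.8 CPM, the others 164 to 167) and Nck1 (74.3 CPM, the others 80.7 to 81.3), and the high library for Ankrd44 (80.2 CPM, the others 67.3 to 69.1). KO 4 was high for the kinetochore motor gene Cenpe, by a small amount (106 CPM, the others 103.2 to 103.6). Among WT libraries, WT 1 was high for H2-M2 (85.8 CPM, the others 71.8 to 72.3) and the chaperone gene Dnajb4 (53.6 CPM, the others 42.2 to 44.1). WT 4 was high for Csf3r, the G-CSF receptor (13.6 CPM, the others 11.4 to 11.7), and for Ptgs2, which encodes cyclooxygenase-2 (393 CPM, the others 276 to 289). Without WT 4, Ptgs2 was called higher in KO (edgeR adjusted p = 0.0187).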

How the results depend on the processing

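None of the 70 called genes with the symbol of a known gene reversed direction in an alternative run that gave it an adjusted p. Neither the number of calls nor the share of higher genes held. Against 76 called (40 higher, 36 lower; 52.6% higher), DESeq2 called 140 (80 higher, 60 lower) of 8604 genes it gave an adjusted p, and no filter on low counts called 359 of 22993 (161 higher, 198 lower; 44.8% higher). One fit of all 40 libraries called 35 (21 higher, 14 lower; 60.0% higher), and leaving out both male animals called 56, with 17 lower and 69.6% higher. Leaving out 1 library at a time gave 18 to 160 calls, 10 to 59 higher and 8 to 107 lower: 18 without WT 2, 32 without WT 3, 37 without KO 4, 39 without KO 3 and 160 without KO 1, where 33.1% were higher. RLE scaling (78), upper-quartile scaling (81), limma-voom (68), a minimum count of 30 (101) and sex as a term (89) stayed within 1.5 times. Of 70 called genes with the symbol of a known gene, 16 were called without any 1 library, and 12 of these also in the other 10 settings; Arl4c, H2-M2, Inhba and Stard7 were not called in the fit of all 40 libraries. Otulin was called without WT 4 (0.0198), without a filter (0.0186) and at a minimum count of 30 (adjusted p = 0.0496). Gclm was also called without a filter (0.000331) and with sex as a term (0.0455), and Nfe2l2 (0.028) and Atp6v0d2 (1.46e-09) without a filter. That filter setting also called Icosl of the MHC class II and costimulatory list lower (edgeR adjusted p = 9.84e-05). It called Ctsc of the lysosome and cathepsin list lower as well (edgeR adjusted p = 0.0300).

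Across genotypes the replicate numbers did not pair the samples: same-numbered KO and WT libraries at 3 h correlated at −0.198 to −0.0886. With the replicate block 26 genes were called (18 higher, 8 lower). For the difference between 3 h and before LPS, where edgeR called 0, DESeq2 called 2 and no filter 4. Between 3 and 6 h DESeq2 called 1, no filter 30 and a replicate block of animals 4. Across times a library's own number was the best match in 7 of 8 libraries before LPS and in 7 of 8 at 6 h, with some correlations under 0.1. The numbers are a hint of shared animals, which the labels do not name. The main fits between times did not use the numbers as a pairing. Leaving out both libraries of 1 number within a genotype gave 0 calls between before LPS and 3 h. Between 3 and 6 h it gave 0 to 1, the 1 being Metrnl without the WT 1 libraries. The causes of these shifts were not tested. Genes under about 5 CPM rest on few counts.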
